A study of Homo sapiens with 15 samples.

Results

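The genes described here are those of the cytosolic ribosomal proteins (RP genes). Members were chosen by name, as genes called RPL or RPS followed by digits and at most one of A, L, AL, L1 or X, together with RPLP0, RPLP1, RPLP2 and RPSA, so that S6 kinases, RPS4Y and pseudogenes were left out. This gave 85 genes of the 30484 gene names on the array, measured by 206 of 41000 probes. The study hybridized RNA of A549, a human cell line established from a lung adenocarcinoma, to 15 dual-color oligonucleotide arrays. For each of 5 miRNAs, namely miR-565, miR-181d, miR-766, miR-574-3p and miR-629*, 3 arrays set cells transfected with a precursor of the miRNA (overexpressing cells, labeled with Cy5) against cells transfected with an LNA oligonucleotide antisense to it (knocked-down cells, labeled with Cy3). All cells received 20 nM of oligonucleotide, RNA was extracted after 24 h, and no group was untreated, so the other miRNAs' arrays are the only baseline for a single channel. Dyes were not swapped. Within a miRNA, dye and treatment therefore cannot be told apart, but a dye effect that all arrays share drops out when one miRNA is compared with the others. The labels give each array a replicate number but do not say that the replicates came from separate transfections, so p-values measure only the spread between these arrays, which may be technical.

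Cytosolic ribosomes consist of a large and a small subunit, in which RNA is assembled with proteins each encoded in humans mostly by a single gene. RP mRNAs are among the most abundant of a growing cell. Most begin with a run of pyrimidines at the first transcribed base, the TOP motif, through which the mTOR pathway controls their translation together with that of elongation factors. A few proteins also act outside the ribosome. RPL5 and RPL11 bind MDM2 when ribosome assembly is disturbed, and RPS6 is the substrate of the S6 kinases.

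Sequences are shown for the members on which the comparisons turn. The first transcribed bases were read from RefSeq (GRCh38.p14), which matched 68 of the members by symbol, and are printed from 30 bases before the start to 30 from it onward, with the pyrimidine run that covers the start in capitals.
RPL11 (chr1:23691776-23691835, plus strand): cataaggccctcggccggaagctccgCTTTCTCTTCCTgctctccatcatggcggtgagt
RPL34 (chr4:108620546-108620605, plus strand): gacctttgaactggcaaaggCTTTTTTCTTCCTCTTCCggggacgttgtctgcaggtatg
RPL38 (chr17:74203648-74203707, plus strand): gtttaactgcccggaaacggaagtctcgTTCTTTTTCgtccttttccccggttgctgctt
RPLP2 (chr11:809937-809996, plus strand): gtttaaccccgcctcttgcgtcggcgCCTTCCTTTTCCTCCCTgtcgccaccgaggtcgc
RPS27 (chr1:153990732-153990791, plus strand): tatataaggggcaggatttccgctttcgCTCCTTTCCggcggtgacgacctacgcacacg
RPS6 (chr9:19380207-19380266, minus strand): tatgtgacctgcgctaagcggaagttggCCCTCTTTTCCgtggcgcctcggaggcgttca
A C at the start followed by at least 4 C or T, searched on the transcribed strand at that position only, was found for 47 of the 68 matched members (69.1%) and for 1404 of the 27305 genes of the table (5.14%). A gene was counted when any of its annotated starts matched, with 84 starts for the members and 35116 for the table. RPL11 and RPL34 each have another annotated start, not printed, that did not match. A match describes the letters at an annotated start and was not tested as a control element here.

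Another set shows what the arrays measured for the pair of genes with the largest miR-565 ratios below 0 in the mean of 3 arrays. Each probe is 60 bases long and its position is that of the deposited files (NCBI36).
RPL11 (chr1:23893760-23893819): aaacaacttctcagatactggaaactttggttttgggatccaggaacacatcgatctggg
RPL23A, dimmer probe (chr17:24073905-24073964): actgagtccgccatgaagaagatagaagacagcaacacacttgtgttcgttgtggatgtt
RPL23A, brightest (chr17:24074717-24074776): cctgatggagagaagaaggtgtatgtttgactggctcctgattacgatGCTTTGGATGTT
Capitals in the last line mark the 12 bases that it shares with another probe of RPL23A, so these probes overlap and are not independent. The mature sequences of the miRNAs found in RefSeq, with the seed (bases 2 to 8) in capitals, share no seed.
hsa-miR-181d-5p: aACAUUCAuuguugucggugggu
hsa-miR-574-3p: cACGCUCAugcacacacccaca
hsa-miR-629-3p (miR-629*): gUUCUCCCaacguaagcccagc
The remaining miRNAs were miR-565 and miR-766. Transcript sequences were not used here, so sites of the miRNAs in RP mRNAs were not searched.

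RP genes were among the brightest on the arrays. A gene was read from its brightest probe, and 84 of the 85 passed the filter on dim probes. The exception was RPSA, which encodes the laminin receptor protein of the small subunit; its only probe had a mean processed signal of 1.54 and was not tested. The 84 genes were well above background in both channels on all 15 arrays, and 81 of them lay in the brightest 10% of the probes tested. Their median signal was 82378, against 211 over all 31330 probes tested, and ranged from 34.03 for RPL3L, a paralog of RPL3 known from muscle, to 189575 for RPS2, a core protein of the small subunit. Signals of different probes depend on the probe and rank no gene against another. Of the 85 genes, 29 had 1 probe and 56 had several, up to 14 for RPL21, and 2 of the RPL34 probes carry the same sequence.

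The A549 label was checked against marker genes. All 9 epithelial and A549 markers were well above background in both channels on all arrays, from a mean signal of 161 for TACSTD1 (EPCAM) to 139595 for AKR1B10. Of 4 leukocyte markers CD14 (159) and CD3E (35.9) were above it throughout and PTPRC on no array. Of the endothelial markers PECAM1 was above it on no array, whereas VWF (12.1) was above it on 15 arrays in Cy5 and 9 in Cy3. Of the fibroblast markers COL3A1 was above it on no array and COL1A1 (38.5) on all. The part of these transcripts in the results below was not tested.

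Replicate 1 of miR-565 stood apart from the other 14 arrays, so results are given with and without it. The SD of the log2 ratio (overexpressing over knocked-down) was 0.49 over the 84 RP genes on that array and 0.14 to 0.19 on the others. Over all probes tested it was 0.94, against 0.29 to 0.53. In the overexpressing channel 68.1% of the probes were well above background, against 71.7% to 75.5% on the other arrays, and the median net signal was 109, against 137 to 165.

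**Figure D1:**
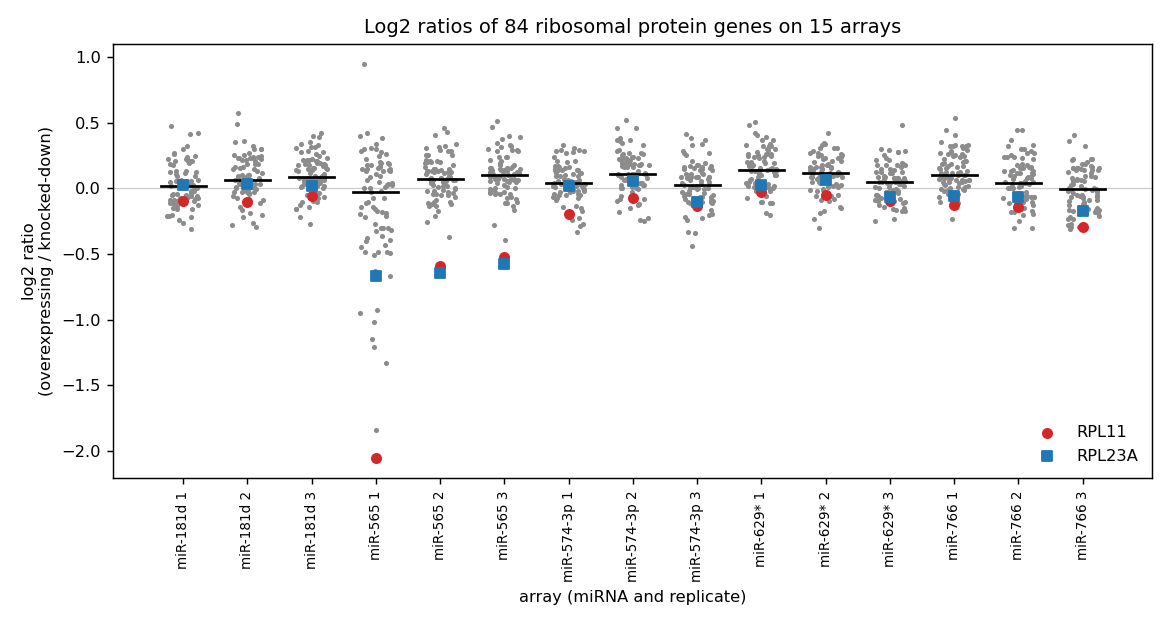
Log2 ratio (overexpressing over knocked-down cells) of the 84 tested RP genes on each of the 15 arrays, with 1 point per gene, a black line at the median, RPL11 as red circles and RPL23A as blue squares. The genes lie close to 0 on 14 arrays, whereas on miR-565 replicate 1 they reach from -2.06 to 0.95; RPL11 and RPL23A lie below the bulk on all 3 miR-565 arrays.

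The median log2 ratio over the 84 genes was 0.06 for miR-181d, 0.04 for miR-565, 0.06 for miR-574-3p, 0.11 for miR-629* and 0.06 for miR-766. The medians over all probes tested were 0.01, 0.03, 0.01, 0.03 and 0.01 in the same order. With normexp background correction and loess in place of the deposited log ratio, the medians of the RP genes were 0.18, 0.14, 0.21, 0.21 and 0.19, whereas the median over all probes tested lay between -0.03 and 0.003 on the 15 arrays and that over the brightest 10% between -0.06 and -0.01. The size of the group's shift therefore depended on this processing, in which background correction and dye normalization changed together. Without replicate 1 the miR-565 median was 0.10, against 0.01 over all probes. The medians of the 53 genes of the large subunit were 0.08, 0.05, 0.05, 0.12 and 0.07 in the same order, and those of the 31 of the small subunit were 0.03, 0.02, 0.07, 0.06 and -0.01, so that the large subunit was higher for 4 miRNAs and lower for miR-574-3p, differences that were not tested.

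A gene was called at an adjusted p under 0.05 in limma. For miR-181d, 6 of 84 RP genes (7.14%) were higher in the overexpressing cells, beside 2.77% of all probes tested, and 0 were lower, beside 1.65%; 28 RP genes (33.3%) had an unadjusted p under 0.05 in either direction, beside 21.8%. For miR-565, 10 (11.9%) were higher and 4 (4.76%) lower, beside 7.95% and 2.79%. For miR-574-3p, 3 (3.57%) were higher and 2 (2.38%) lower, beside 2.32% and 1.73%. For miR-629*, 10 (11.9%) were higher and 0 lower, beside 5.71% and 3.2%, with an unadjusted p under 0.05 for 30 (35.7%, beside 27.3%). For miR-766, 4 (4.76%) were higher and 1 (1.19%) lower, beside 0.929% and 0.22%. The shares of RP genes called higher exceeded those of all probes for each of the 5 miRNAs. The probes of the background are mostly far dimmer than those of the RP genes, and this comparison of shares was not tested. With the slide as a block, the RP genes called in the ratio were 0, 1, 0, 0 and 0 in the order above, beside 0%, 0.0415%, 0.217%, 0.00958% and 0% of all probes. The 1 was RPL23A for miR-565 (adjusted p = 0.0325, limma), so that the other calls of RP genes in the ratio were lost with this block, RPL11 for miR-565 among them (0.197).

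The spread of replicate 1 of miR-565 entered every one of these tests, since the 15 arrays share an estimate of the spread. Without it, 31 RP genes were called for miR-181d, 30 for miR-574-3p, 36 for miR-629* and 28 for miR-766. The shares of all probes called rose with them, to 26.2%, 20.3%, 33.4% and 16.5%. For miR-565 itself, 16 RP genes were higher and 4 lower without the array, beside 7.84% and 5.75% of all probes.

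RPL23A and RPL11 gave the lowest ratios of the RP genes for miR-565 and are described first for that reason. Their separation from the other arrays is therefore not independent of this choice, and the share of all probes so separated is not given. RPL23A encodes a large subunit protein at the exit of the peptide tunnel. Its log2 ratio was -0.67, -0.64 and -0.57 on the 3 miR-565 arrays and -0.17 to 0.07 on the 12 others. The groups did not overlap, and replicate 1 was no outlier for this gene. The mean of -0.63 ± 0.05 (SD, n = 3) corresponds to a ratio of 0.646 (adjusted p = 0.000349, limma). A low ratio can come from a lower Cy5 or a higher Cy3 signal, and both channels are given below. In these bulk samples, a change in the cells present and a change in RNA per cell cannot be told apart.

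The probes of RPL23A did not all follow this. The probe second in signal gave -0.72, -0.55 and -0.65 on the miR-565 arrays, and the dimmer one printed above gave -0.52, -0.44 and -0.45. The dimmest, with a mean signal of 2570, gave 0.14, -0.15 and -0.10, against -0.04 to 0.16 on the arrays of the other miRNAs. Thus 3 of the 4 probes were low on all miR-565 arrays, and the dimmest lay below the other miRNAs on replicates 2 and 3 only.

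RPL11, the large subunit protein that binds MDM2 together with RPL5, had a single probe. Its log2 ratio was -2.06, -0.59 and -0.52 on the miR-565 arrays and -0.29 to -0.03 on the others. Again the groups did not overlap, but replicate 1 lay far below the other replicates. The ratio of the mean was 0.480 (log2 -1.06 ± 0.87, SD, n = 3; adjusted p = 0.0155, limma), and without replicate 1 the log2 ratio was -0.56 (SE 0.05; adjusted p = 0.00049).

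The arrays lay on 4 slides, and 2 slides held miR-565 together with another miRNA. For RPL23A, miR-565 minus miR-181d was -0.70 on the first of these and miR-565 minus miR-574-3p was -0.65 on the other. The corresponding differences of RPL11 were -1.97 and -0.43, the former resting on replicate 1. Both genes were thus lower for miR-565 within each slide. They were picked by their low miR-565 ratios on these same arrays, so these differences are not separate support.

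The remaining RP genes called lower for miR-565 moved less. RPL36, of the large subunit, had log2 ratios of -0.11, -0.37 and -0.40 (adjusted p = 0.0235, limma; 0.0661 without replicate 3), and arrays of other miRNAs reached from -0.24 to 0.04. RPS4X, of the small subunit and encoded on the X chromosome, had -0.37, -0.12 and -0.13 (adjusted p = 0.0442), and its call was lost without replicate 1 (adjusted p = 0.0721) or replicate 3 (adjusted p = 0.0553). Both groups overlapped with the other arrays.

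Of the 10 RP genes called higher for miR-565, the highest mean was that of RPL3L, with log2 ratios of 0.95, 0.20 and 0.31 at a signal of 34.03, and this call was lost without replicate 1 (adjusted p = 0.111). RPS27, a zinc finger protein of the small subunit, followed with 0.15, 0.46 and 0.51 (adjusted p = 0.0178; 0.0566 without replicate 3). RPL13A, which also acts in translational silencing by interferon gamma, had 0.39, 0.32 and 0.24. The groups overlapped for all of these, since most arrays of the other miRNAs also lay above 0.
RPS16 of the small subunit had 0.40, 0.25 and 0.29, and RPL34 of the large subunit had 0.30 on each array. RPLP1, an acidic protein of the ribosomal stalk, had 0.34, 0.25 and 0.16 (adjusted p = 0.0487), and its call was lost without replicate 1 (0.121), replicate 2 (0.0693) or replicate 3 (0.0565). These genes too overlapped with arrays of other miRNAs.

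**Figure D2:**
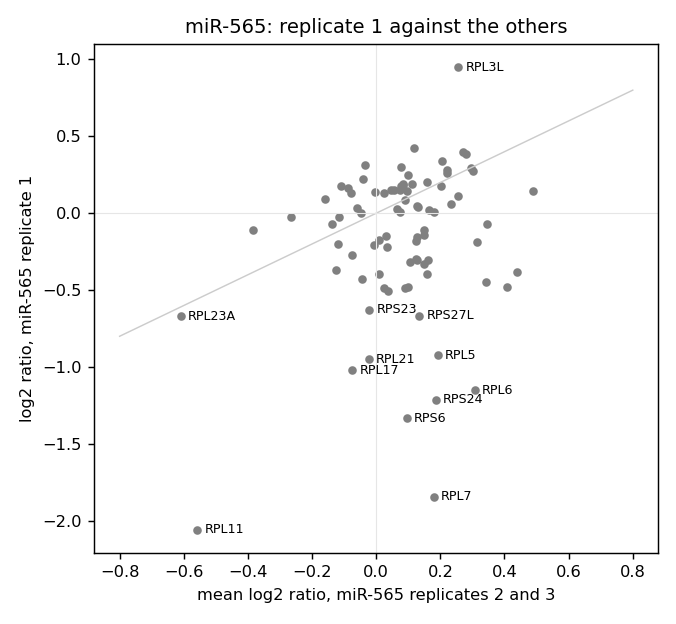
Log2 ratio of the 84 tested RP genes on miR-565 replicate 1 (vertical axis) against the mean log2 ratio of replicates 2 and 3 (horizontal axis), with 1 point per gene and the line of equality in grey. RPL11 and RPL23A lie low on both axes, whereas RPL7, RPS6, RPS24, RPL6 and others lie low on replicate 1 only.

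A larger set of RP genes was low on replicate 1 of miR-565 only. On that array 12 of the 84 (14.3%) had a log2 ratio below -0.5, against 0 to 2 on each other array. Among the brightest 10% of all probes the share was 22.0%, against 0.319% to 3.86%, so RP genes had no larger share than other bright genes there. All 12 lay below their values on all 14 other arrays, which follows largely from choosing them by their low ratio on this array. The share of all probes that were lowest on this array is not given. The 10 besides RPL11 and RPL23A had log2 ratios between -0.11 and 0.33 on replicates 2 and 3.
The lowest of the 10 were RPL7 of the large subunit, at -1.84, and RPS6, the S6 kinase substrate, at -1.33. RPS24, mutated in some patients with Diamond-Blackfan anemia, had -1.21. RPL6 and RPL17 had -1.15 and -1.02, RPL21 had -0.95, and RPL5, the partner of RPL11 in the 5S particle, had -0.92. RPS27L, a paralog of RPS27, had -0.67, RPS23 had -0.63 and RPS3A -0.50. None of RPL7 (adjusted p = 0.219), RPS6 (0.195) and RPL5 (0.423) was called for miR-565 over the 3 arrays. Both subunits were represented, with 7 of the 12 genes in the large one.

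The low values on replicate 1 appeared in several probes of a gene. All 14 probes of RPL21 were low, from -0.95 to -0.46. Over the 54 genes with several probes of at least 1000 in signal, the SD was 0.16 between probes of a gene and 0.41 between genes on that array, against 0.11 to 0.14 and 0.11 to 0.15 on the others. After quantile normalization within each dye, the Cy5 signal of the 12 genes was lower on replicate 1 than the mean of the other arrays by a median of 0.66 on the log2 scale, and the Cy3 signal was higher by 0.26. The change in Cy5 was the larger for 11 of the 12. These genes were chosen by a low ratio on this array, so a lower Cy5 or higher Cy3 signal follows from the choice. The same shifts of other bright probes are not given, so these values are not read as particular to RP genes. Across the 84 genes, the log2 ratio correlated with the GC content of the probe with r = 0.37 on replicate 1 and -0.16 to 0.14 on the other arrays, and over all probes with r = 0.26 and -0.28 to 0.03. These points share an array and are not replicates. The part of probe composition and of the lower Cy5 signal in these values was not tested.

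In the difference between a miRNA and the mean of the other 4, RPL23A was the only RP gene called for miR-565 (1 of 84, beside 0.083% of all probes). Its difference was -0.61 (SE 0.06; adjusted p = 0.0024, limma), and -0.59 (adjusted p = 0.00228) without replicate 1. RPL11 differed by -0.94 (SE 0.24; adjusted p = 0.318) over all arrays and by -0.44 (SE 0.05; adjusted p = 0.00851) without replicate 1, so its call depended on leaving out the array in which it was lowest. Without that array 2 RP genes were called, beside 0.121% of all probes.
For miR-574-3p, 2 RP genes were called, beside 1.03%. For miR-181d, miR-629* and miR-766, 0 were called (limma), beside 0%, 0.0319% and 0%, and 3, 2 and 1 RP genes (3.57%, 2.38% and 1.19%) had an unadjusted p under 0.05, beside 6.65%, 4.50% and 2.62% of all probes. Without replicate 1 of miR-565, the latter counts were 8, 10 and 3 (9.52%, 11.9% and 3.57%), beside 14.6%, 11.8% and 7.53%.

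The separate channels showed on which side RPL11 and RPL23A stood apart. The processed Cy3 signal of RPL11 in knocked-down cells was 178084, 97831 and 89189 on the miR-565 arrays and 55758 to 82944, with a median of 72426, on the others. That of RPL23A was 216412, 162185 and 143081, against 79155 to 116360 with a median of 105317. All 3 miR-565 values lay above all 12 others for both genes. These signals were not normalized between arrays, and on replicate 1 the RP genes were brighter as a group. Their median log2 Cy3 signal was 16.85 there, against 15.83 to 16.44 on the other arrays. The share of all probes without such overlap is not given.
In the overexpressing cells, the Cy5 signal of RPL11 was 42789.5, 64953 and 61998, against 52142 to 74271. That of RPL23A was 135985, 103823 and 96069, against 76132 to 114669. These values overlapped, except that RPL11 was lowest and RPL23A highest on replicate 1. After quantile normalization within the dye, neither gene was above the mean of the other arrays there. The Cy5 differences on the log2 scale were -1.04 for RPL11 and -0.06 for RPL23A.

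**Figure D3:**
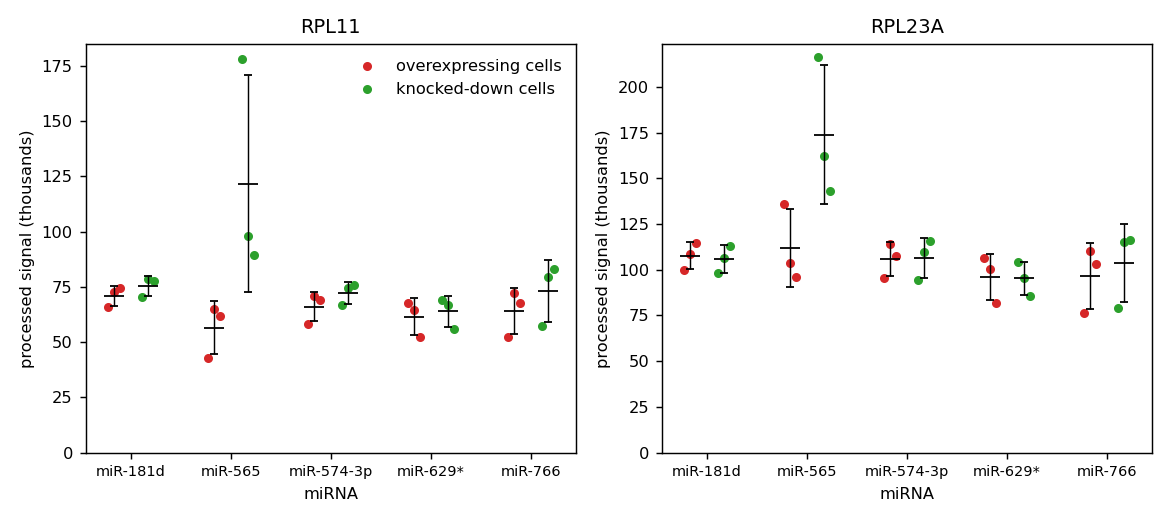
Processed signal, in units of 1000, of RPL11 and RPL23A in overexpressing cells (Cy5, red) and knocked-down cells (Cy3, green) for each miRNA, with 1 point per array, the mean as a horizontal bar and the SD over 3 arrays as the error bar. The green points of miR-565 lie above those of all other miRNAs, from 89189 upward for RPL11 and from 143081 upward for RPL23A.

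After quantile normalization within the dye, 4 RP genes differed from the other miRNAs in the knocked-down channel of miR-565 (beside 2.8% of all probes). RPL23A was higher by 0.57 (SE 0.05; adjusted p = 1.08e-05, limma) and RPL11 by 0.53 (SE 0.05; adjusted p = 2.91e-05). RPL36 was higher by 0.26 (SE 0.04; adjusted p = 0.00458; 0.0505 without replicate 3). RPL34 was lower by 0.17, the difference being -0.17 (SE 0.04; adjusted p = 0.0252), and that call was lost without replicate 1 (0.075), replicate 2 (0.155) or replicate 3 (0.0849). The calls of RPL11 and RPL23A were kept without any one array.
In the overexpressing channel, 0 RP genes were called for any of the 5 miRNAs (limma), with or without replicate 1. With it, the share of all probes called there was 0% for 4 miRNAs and 0.294% for miR-766; without it, the share was 0.00319% for miR-565, 0.0319% for miR-574-3p, 0.393% for miR-766 and 0% for the other two. With all arrays, an unadjusted p under 0.05 was found for 2 RP genes for miR-181d (2.38%, beside 3.87% of all probes), 12 for miR-565 (14.3%, beside 19.1%), 0 for miR-574-3p (beside 3.60%), 0 for miR-629* (beside 2.07%) and 6 for miR-766 (7.14%, beside 3.87%). Without replicate 1 of miR-565, the counts were 8, 3, 2, 1 and 14 in the same order. These were 9.52%, 3.57%, 2.38%, 1.19% and 16.7% of the RP genes, beside 10.3%, 2.19%, 6.10%, 6.07% and 9.26% of all probes. With all arrays, the widest range in that channel was that of miR-565, from -0.52 to 0.36. This rested on replicate 1, without which it was -0.10 to 0.19, about as wide as -0.21 to 0.09 for miR-181d. With the slide as a block, 13 RP genes were called in the overexpressing channel over the 5 miRNAs, beside 3.76% of all probes, and 69 rather than 11 in the knocked-down channel, beside 20.6%, so that the counts in both channels depended on the block.

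**Figure D4:**
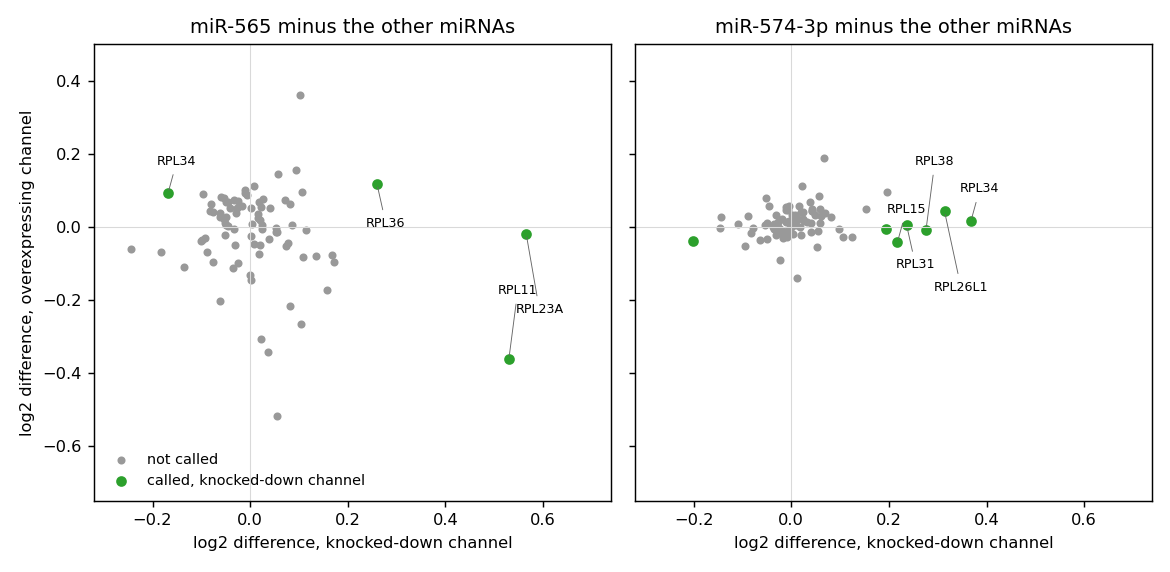
Difference of a miRNA from the mean of the other 4 in log2 signal, after quantile normalization within the dye, for the 84 tested RP genes in the knocked-down channel (horizontal axis) and the overexpressing channel (vertical axis). Green points are genes called in the knocked-down channel, 4 for miR-565 on the left and 7 for miR-574-3p on the right, some without a name; no gene was called in the overexpressing channel in this fit, which has no slide block.

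For miR-574-3p, the RP genes that departed from the other miRNAs also did so in the knocked-down cells. In that channel 7 RP genes were called, beside 8.58% of all probes, which is close to the share of RP genes (8.33%). The genes named here were chosen because they were called, which was seen in the values. RPL34 was higher by 0.37 (SE 0.04; adjusted p = 5.78e-06, limma), RPL26L1, a paralog of RPL26, by 0.31, and RPL38, which takes part in the translation of Hox mRNAs in mice, by 0.28 (adjusted p = 0.00129). RPL31 and RPL15 were higher by 0.24 and 0.22.
The raw Cy3 signals overlapped between the groups, with 42403, 47827 and 51114 for RPL34 on the miR-574-3p arrays and 27041 to 50963 on the others. For miR-181d, miR-629* and miR-766, 0 RP genes were called in the knocked-down channel (limma), beside 1.96%, 0.859% and 4.19% of all probes, and 19, 14 and 10 (22.6%, 16.7% and 11.9%) had an unadjusted p under 0.05, beside 21.1%, 12.8% and 22.2%.

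In the ratio, RPL34 and RPL38 were the RP genes called in the difference of miR-574-3p from the other miRNAs. The log2 ratio of RPL34 was -0.05, -0.12 and -0.21 on the miR-574-3p arrays and -0.03 to 0.30 on the others, without overlap. Its difference was -0.33 (SE 0.06; adjusted p = 0.0253, limma). RPL38 had 0.07, 0.002 and -0.06 against 0.18 to 0.32, also without overlap, and a difference of -0.27 (SE 0.06; adjusted p = 0.0488). These calls were lost when any one miR-574-3p array was left out, with adjusted p from 0.0965 to 0.19 for RPL34 and from 0.172 to 0.276 for RPL38, and with the slide as a block (0.0521 and 0.0781). Without replicate 1 of miR-565, 7 RP genes were called, beside 4.6% of all probes, among them RPL34, RPL38, RPL15, RPL26L1 and RPL31 as lower.
The probes of RPL34 disagreed. The 2 brightest, which carry the same sequence, lay between -0.21 and -0.04 on the miR-574-3p arrays. The next, with a signal of 29806, had 0.06, 0.07 and -0.03, within its range of -0.13 to 0.29 on the other arrays, and the 3 dimmer ones, with signals of 5132 to 15281, lay between 0.13 and 0.40. The lower ratio of RPL34 thus rested on 1 probe sequence. RPL26L1 was also divided, with -0.14, -0.18 and -0.24 for its brightest probe and 0.15 to 0.34 for the others.

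The lowest ratios of RP genes for miR-574-3p were those of RPS9 and RPL15. RPS9, of the small subunit, had log2 ratios of -0.24, -0.25 and -0.44 (adjusted p = 0.0422, limma) and -0.30 to 0.09 on other arrays, so that the groups overlapped. RPL15, of the large subunit, had -0.33, -0.22 and -0.34 (adjusted p = 0.0122) against -0.20 to 0.01, without overlap. A dimmer probe of RPL15, with a signal of 3835, had 0.09, 0.07 and 0.13 on the same arrays. RPS27, RPS16 and RPL13A were called higher, at 0.37, 0.31 and 0.28. Without replicate 1, 2 or 3 of miR-574-3p, 1, 0 and 0 RP genes were called in the ratio (limma), the 1 being RPS16. Shares of all probes are not given for these fits, so this loss is not read as particular to RP genes.

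Several RP genes lay on one side of 0 for all miRNAs. On the 14 arrays without replicate 1 of miR-565, 25 of 84 RP genes were above 0 and 6 below 0 on every array, beside 10.1% and 6.35% of all probes. On all 15 arrays the counts were 13 and 5, beside 5.60% and 2.44%. Since dyes were not swapped, a dye effect of a probe and an effect of treatment common to the miRNAs cannot be told apart here.
RPS27 had the largest such excess of the named genes called for several miRNAs, with a mean log2 ratio of 0.35 over 14 arrays (0.13 to 0.51). RPS16 had 0.29 (0.14 to 0.46) and RPL13A had 0.28 (0.05 to 0.36). Each was called for 4 of the 5 miRNAs, as was RPL38. These values are of the brightest probe, and the other probes of RPL13A and RPS27 were closer to 0. Those of RPL13A, with signals of 65570 and 65467, lay between -0.08 and 0.11 and between -0.11 and 0.08 over the 15 arrays, and that of RPS27, with a signal of 98277, between -0.04 and 0.23. In all, 23 RP genes (27.4%) were called for at least 1 miRNA, beside 19.4% of all probes.
The genes below 0 on all 15 arrays, read from the brightest probe, were RPLP2, RPS3, RPS4X, RPL17 and RPL11. The probes of RPL17 disagreed. Its second, with a signal of 30017, lay between 0.14 and 0.44 on 14 arrays and at -0.56 on replicate 1 of miR-565. Its dimmest lay on both sides of 0. RPLP2, an acidic stalk protein, had a mean of -0.22 over 14 arrays (-0.30 to -0.14). RPS3, which also acts in DNA repair, had -0.12 (-0.21 to -0.04).

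**Figure D5:**
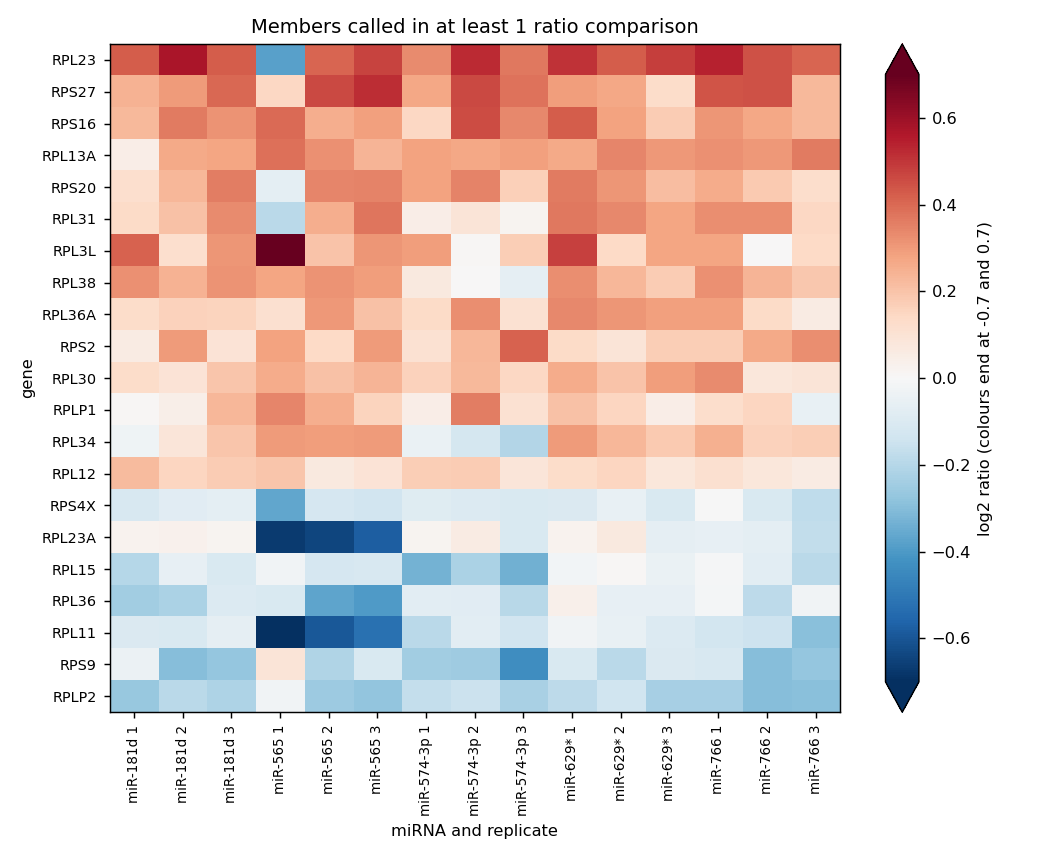
Log2 ratios of 21 of the 23 RP genes called for at least 1 miRNA (rows) on each of the 15 arrays (columns), red for higher and blue for lower in overexpressing cells, with the color scale ending at -0.7 and 0.7. RPS27, RPL13A and RPS16 are red on every array, RPLP2 is blue on every array, and RPL11 and RPL23A are darkest blue on the miR-565 arrays.

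Few calls of the remaining miRNAs involved genes outside that shared pattern. For miR-181d, RPS27, RPS16, RPL38 and RPL12, a protein near the base of the stalk, were among the genes called higher, at 0.31, 0.30, 0.29 and 0.18. For miR-629*, RPL23, which binds MDM2 as well, had 0.51, 0.43 and 0.49 (adjusted p = 0.0382), and on other arrays it lay between 0.33 and 0.57 except on replicate 1 of miR-565, where it was at -0.38.
The next were RPL31, RPL36A, RPL13A and RPS20 at 0.33, 0.31, 0.30 and 0.30. For miR-766, RPLP2 was the only RP gene called lower, with -0.23, -0.30 and -0.29 (adjusted p = 0.0495), and RPS27, RPL13A and RPL38 were among those called higher, at 0.37, 0.33 and 0.25. None of these genes was called in the difference of miR-181d, miR-629* or miR-766 from the other miRNAs. Leaving out any one array of the miRNA itself left 0 RP genes called in the ratio (limma) for these 3 miRNAs. The share of all probes called in those fits is not given here, so the loss is not read as particular to RP genes.

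The proteins of the stalk, the 5S particle and the paralogs were followed in every comparison. RPLP0, the base of the stalk, was called for no miRNA, with a mean log2 ratio of 0.11 over 14 arrays (-0.02 to 0.22). RPL5 was called for no miRNA either, with 0.17 (0.04 to 0.26), and neither were RPS14 with 0.19 and RPS19 with 0.10, whose genes are altered in forms of anemia.
Among the paralogs, only RPL3L was called in a ratio. RPL10L, RPL22L1, RPL36AL, RPL39L, RPL7L1 and RPS27L had means over 14 arrays of -0.09, 0.11, -0.04, 0.07, -0.13 and -0.07. Their parents RPL10, RPL22, RPL36A, RPL39, RPL7 and RPS27 had 0.15, 0.03, 0.21, 0.002, 0.13 and 0.35 in the same order. RPL26L1 had 0.02 and RPL26 had 0.20, and RPL3 had -0.01. Probes of near-identical copies may bind either mRNA.

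The study called a gene suppressed at a ratio under 0.5 with a knocked-down signal of at least 20 and an accepted p up to 0.001. With the unadjusted limma p in that place, 1 RP gene was suppressed for any miRNA, namely RPL11 for miR-565. By the mirrored limit of a ratio over 2, which was added here, 0 RP genes were induced. Both directions together held 0.0894% of all probes over the 5 miRNAs. Without replicate 1 of miR-565 it did not pass, and 0 RP genes were left.

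Other genes of the translation apparatus were read from the same ratios. Of 17 further genes translated under TOP control or with ribosomal roles, 1 was called lower and 1 higher for miR-181d, 1 and 2 for miR-565, 1 and 1 for miR-574-3p, 1 and 2 for miR-629*, and 0 and 1 for miR-766. Since 1 gene is 5.88% of this list and 2 are 11.8%, each share above 0 exceeded that of all probes given above for the same miRNA and direction, but rested on 1 or 2 genes and was not tested. Without replicate 1 of miR-565, 2 or 3 (11.8% or 17.6%) were called lower and 3 or 4 (17.6% or 23.5%) higher for each miRNA. Of all probes, 5.75% to 13.3% were then called lower and 7.84% to 20.0% higher. EEF1D, an elongation factor subunit, was higher for all 5 miRNAs, from 0.18 to 0.31. GNB2L1 (RACK1), a scaffold of the small subunit, was lower for miR-574-3p at -0.41 (adjusted p = 0.00172, limma), for miR-565 at -0.26 and for miR-181d at -0.22.
The list's median for miR-565 was -0.13 with replicate 1 and -0.01 without it. On that array NPM1, a nucleolar chaperone, was at -1.77, against 0.27 and 0.20 on replicates 2 and 3. EEF1A1, the elongation factor that delivers tRNA, was at -1.01, against 0.06 and 0.15.
Of 20 genes of ribosome biogenesis, at most 1 (5%) was called in each direction for any miRNA. The shares of all probes ran from 0.22% to 3.2% lower and from 0.929% to 7.95% higher. Without replicate 1 of miR-565, 3 to 5 of the 20 were called lower and 1 to 4 higher. Beside these stood 5.75% to 13.3% and 7.84% to 20.0% of all probes. TCOF1, the treacle protein of ribosomal RNA transcription, was lower for miR-181d, miR-565 and miR-629*, at -0.38, -0.32 and -0.28. Of 76 mitochondrial ribosomal protein genes, 4 (5.26%) were called lower for miR-574-3p, beside 1.73% of all probes, and at most 1 (1.32%) in each direction for the other miRNAs. MRPS21 was the lowest of the 4 at -0.58 (adjusted p = 0.0154, limma), with log2 ratios of -0.50, -0.60 and -0.65. Without replicate 1 of miR-565, 13 of the 76 were called lower and 9 higher for miR-574-3p, beside 9.58% and 10.7% of all probes. For the other miRNAs, 4 to 10 were then lower and 6 to 13 higher, beside 5.75% to 13.3% and 7.84% to 20.0%.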

How the data were processed

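The 15 scanner files deposited by the authors were made with Feature Extraction 9.5.3.1. They hold intensity values per spot, as deposited, namely processed signals (background corrected and dye normalized by LOWESS in that software) and mean signals without normalization. The log10 ratios deposited by the authors equal their series table. Here control spots and outlier spots were left out, spots of a probe were averaged, and the log2 ratio (Cy5 over Cy3) was fitted in limma 3.58.1 (R 4.3.3; lmFit, eBayes with an intensity trend) over all arrays, with 1 coefficient per miRNA. Benjamini-Hochberg adjustment covered 31330 probes, those with 2 or more values per miRNA and a signal well above background (Cy5 or Cy3) on 3 or more arrays. Channels were compared after quantile normalization of each dye. The fit was tested on simulated ratios. The number of arrays limits the precision.

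Members and lists were chosen with earlier results of these data known. Named were up to 5 called members with the lowest and 5 with the highest value per ratio comparison and per miR-565 channel, and fixed members with their paralogs. A gene with several probes was read from its brightest. The GRCh38.p14 tables gave names and sequences only. Alternatives were other background corrections, centering, filters, weights and blocks, the deposited ratios, averaged probes and each replicate left out. The adjustment for GC content was chosen after seeing the data. The authors' p-values and Rosetta Resolver results were not used here. Results of some genes are not reported here.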

Additional observations from a re-analysis of the deposited data

Results flagged for a closer look

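The differences below are among those of a miRNA from the mean of the other 4 that passed the test of the difference itself in limma, given as values. In the log2 ratio, RPL23A differed by -0.61 for miR-565, and RPL34 by -0.33 and RPL38 by -0.27 for miR-574-3p. In the log2 signal of the knocked-down channel of miR-565, RPL23A differed by 0.57, RPL11 by 0.53, RPL36 by 0.26 and RPL34 by -0.17. In the same channel of miR-574-3p, RPL34 differed by 0.37, RPL26L1 by 0.31, RPL38 by 0.28, RPL31 by 0.24 and RPL15 by 0.22. The comparisons of a channel share their baseline arrays, so these values are not independent of each other.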

How the results depend on the processing

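No called value of a named gene changed sign under the alternatives run. The miR-565 median of the RP genes was too near 0 for its sign to be stable. Median centering takes off each array's median over all probes, which was 0.14, 0.01 and 0.02 on the miR-565 arrays. This brings the RP gene median for miR-565, 0.04 without centering, below 0. The uncalled miR-565 means of RPL7, RPS6 and RPL5 turned from -0.49, -0.38 and -0.18 to 0.18, 0.10 and 0.19 without replicate 1. The number of RP genes called in the ratio was the least stable result. For miR-181d, miR-565, miR-574-3p, then miR-629* and miR-766, it was 6, 14, 5, 10 and 5, and became 37, 39, 44, 41 and 33 with normexp background correction and loess, 41, 46, 43, 46 and 21 with array weights, 0, 1, 0, 0 and 0 with a slide block, and 0 for each miRNA in a fit of its own 3 arrays. The shares of all probes called moved too, to 9.28%, 11.3%, 6.72%, 13.1% and 2.55% with normexp and loess and to 28.7%, 38.7%, 33.0%, 40.5% and 14.7% with array weights. Normexp and loess together also moved the medians of the RP genes to 0.18, 0.14, 0.21, 0.21 and 0.19 and left 0 genes past the ratio limits. With GC content adjusted, 11 genes were called for miR-181d (3.98% of all probes), 8 for miR-574-3p (4.55%) and 1 for miR-766 (1.01%). With averaged probes, 1 was called for miR-574-3p (2.84% of all genes) and 0 for miR-766 (0.591%), and with median centering 2 for miR-766 (1.30% of all probes).

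With each replicate left out, the counts in the ratio ranged from 0 to 31 for miR-181d, 9 to 20 for miR-565, 0 to 30 for miR-574-3p, 0 to 36 for miR-629* and 0 to 28 for miR-766; the highest came without replicate 1 of miR-565 and the zeros without an array of the miRNA itself. For the ratio, the shares of all probes are given above without replicate 1 of miR-565, but not without the other arrays. The medians ranged from 0.03 to 0.09, 0.01 to 0.10, 0.03 to 0.09, 0.08 to 0.13 and 0.02 to 0.09. The 3 genes called by the difference from the other miRNAs ranged from 1 to 9, the 11 of the knocked-down channel from 9 to 15, the 0 of the overexpressing channel stayed at 0, and the 1 past the ratio limits ranged from 0 to 1.

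The difference from the other miRNAs called 14 genes with array weights (3.03% of all probes), 16 with a slide block (5.76%) and 1 with averaged probes (0.187% of all genes). The knocked-down channel called 21 with array weights (6.11%) and 69 with a slide block (20.6%), and the overexpressing channel called 13 with that block (3.76%). RPL23A kept its difference call for miR-565 in all 14 alternatives (adjusted p from 1.75e-05 to 0.0232), and RPL11 and RPL23A their knocked-down channel calls in all 10. RPL34 kept its difference call for miR-574-3p in 9 of 15 and RPL38 in 5 of 15. The causes were not tested. Replicate numbers were not taken to pair the arrays, since not every pair with the same number had a residual correlation over 0.1; 13 of 30 did (median r 0.06), as did 16 of 60 with different numbers (median r -0.05). With the replicate block, 2 genes were called for miR-181d (2.95% of all probes), 1 for miR-766 (0.785%) and 1 by the difference (0.184%).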
